A study of Homo sapiens with 12 samples.

Results

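Heat shock chaperones are proteins that bind unfolded or partly folded proteins and keep them from aggregating, and many of them are made in larger amounts when a cell is heated or otherwise stressed. HSP70 proteins hold short exposed stretches of a client in a cycle driven by ATP, J proteins load the clients, and HSP110 proteins exchange the nucleotide. HSP90 proteins act later, on nearly folded clients such as kinases and steroid receptors, small heat shock proteins hold clients without ATP, and the HSP60 and HSP10 pair folds proteins inside mitochondria. Much of the induction runs through the transcription factor HSF1, which binds inverted repeats of the triplet GAA, the heat shock element. Hepatocytes, which secrete large amounts of protein, keep chaperones at high levels.

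The mRNA levels of 10 chaperones were followed in hepatocellular carcinoma cells in which the zinc finger transcription factor EGR1 had been altered. The chaperones were chosen by name, as the rows of the expression table for HSPA1A, HSPA1B, HSPA8, HSPH1, DNAJB1, HSPB1, HSP90AA1, HSP90AB1, HSPD1 and HSPE1, and all 10 were found among 22963 named rows. The table held 12 bulk RNA-seq libraries in 4 groups of 3. PLC/PRF5 cells carried either the empty lentiviral vector or the same vector with the coding sequence of EGR1 under a CMV promoter, together with copGFP and puromycin resistance, which both of these groups shared. MHCC97H cells were either parental, labelled wild type, or labelled EGR1 knockout, made with a LentiCRISPR-v2 guide and grown from single clones, and the sources used here do not say which clone gave the sequenced RNA. All cells were cultured lines without a heat or drug treatment in the labels, and the labels call the 3 libraries of a group biological replicates without saying what was kept separate (cultures, passages or days), so p-values measure the spread between these libraries.

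Levels are FPKM, which scale fragment counts by transcript length and library size. This scaling does not remove differences between libraries in RNA composition or in how GC content affects the counts. The number of reads behind them is unknown. Sums of FPKM over all rows ran from 376335 to 437652. They were between 376335 and 382430 in the parental libraries and between 407758 and 437652 in those labelled knockout. In bulk RNA, fewer cells that express a gene and less RNA per cell cannot be told apart. EGR1 itself was at 1.97, 1.43 and 2.03 FPKM with the vector and at 56.3, 50.2 and 52.2 FPKM with overexpression. In MHCC97H cells it was at 20.2, 23.1 and 21.2 FPKM in the parental libraries and at 35.2, 50.3 and 32.9 FPKM in those labelled knockout, so EGR1 mRNA was higher where the label says knockout (log2 difference 0.83, limma adjusted p = 0.00126). With a trend on GC content and transcript length fitted out of each library, the log2 difference of EGR1 was 0.46 (limma adjusted p = 0.0436). An edit by Cas9 need not remove the transcript, so mRNA does not check the loss of the protein. The paper reports a check of its knockout clones by western blot and DNA sequencing. The group is called the libraries labelled knockout throughout. Of 10 hepatocyte and hepatoma markers, 9 had a mean of at least 1 FPKM in both PLC/PRF5 groups, 5 in parental MHCC97H and 6 in the libraries labelled knockout. Of 12 markers of leucocytes, endothelium, fibroblasts and smooth muscle, between 2 and 4 did, and their summed level ran from 32.9 to 65.5 FPKM per library. CD68, listed for leucocytes, was the highest, with group means from 28.5 to 53.8 FPKM. PECAM1, listed for endothelium, had group means from 1.5 to 5.99 FPKM. LUM, listed for fibroblasts, had a mean of 8.68 FPKM in parental MHCC97H and 1.18 FPKM in the libraries labelled knockout. CD14, listed for leucocytes, had a mean of 1.47 FPKM in the libraries labelled knockout. PTPRC, the pan-leucocyte marker, was listed at 0 in both PLC/PRF5 groups and CD3E, a T cell marker, in every group but overexpression.

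By GENCODE 29 coordinates on GRCh38, HSPA1A (chr6:31815464-31817946) and HSPA1B (chr6:31827735-31830255) are single-exon genes of the same strand, 9788 bases apart, while the other 8 have introns. HSP90AB1 lies elsewhere on that chromosome (chr6:44246166-44253888), HSPB1 on chr7:76302544-76304295, HSPA8 on chr11:123057489-123063230, HSPH1 on chr13:31134974-31162388 and HSP90AA1 on chr14:102080738-102139699.

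The heat shock element was looked for in RefSeq promoter windows (GRCh38.p14), which run from 250 bases before to 50 bases after an annotated start. All 10 chaperones matched a window, with 16 windows in all. The unit searched was GAANNTTC or TTCNNGAA, both of which read the same on either strand, and a pair that shares a triplet was counted as 3 triplets in a row. Either unit was present in 13.5% of 35116 windows, and a pair sharing a triplet in 0.49%; by gene, 16.2% of 27305 genes had either unit in at least 1 window and 0.608% such a pair. Of the 10 chaperones, 8 had a unit in at least 1 window and 4 (HSPA8, HSP90AA1, HSP90AB1 and HSPD1) had a pair that shares a triplet. The letters of neither unit were in the windows of HSPH1 and HSPE1. Stretches that hold the units are shown because 8 of the 10 chaperones have one, leaving out a single unit at the start of another DNAJB1 window (chr19:14517917-14517948); capitals mark the units and, where one lies within the stretch, the letters GCGNGGGCG, the core that EGR1 binds.
HSPA1A, chr6:31815425-31815456, plus strand: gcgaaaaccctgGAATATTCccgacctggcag
HSPA1B, chr6:31827621-31827652, plus strand: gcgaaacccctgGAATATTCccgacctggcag
HSPA8, chr11:123062167-123062203, minus strand: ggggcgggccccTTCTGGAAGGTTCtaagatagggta
HSPA8, chr11:123062342-123062386, minus strand: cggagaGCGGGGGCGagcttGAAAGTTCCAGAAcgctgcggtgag
DNAJB1, chr19:14518425-14518583, minus strand: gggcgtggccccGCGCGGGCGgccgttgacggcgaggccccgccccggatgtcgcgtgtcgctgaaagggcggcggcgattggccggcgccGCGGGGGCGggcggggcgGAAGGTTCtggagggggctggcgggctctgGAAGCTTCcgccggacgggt
HSPB1, chr7:76302479-76302510, plus strand: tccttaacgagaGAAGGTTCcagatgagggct
HSP90AA1, chr14:102087093-102087214, minus strand: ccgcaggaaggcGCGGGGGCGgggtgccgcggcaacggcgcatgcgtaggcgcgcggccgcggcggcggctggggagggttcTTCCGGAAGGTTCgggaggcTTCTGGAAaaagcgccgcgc
HSP90AB1, chr6:44247766-44247855, plus strand: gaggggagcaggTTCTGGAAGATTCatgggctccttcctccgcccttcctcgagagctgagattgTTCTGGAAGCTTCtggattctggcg
HSPD1, chr2:197500056-197500090, minus strand: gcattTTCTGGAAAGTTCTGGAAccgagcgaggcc

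HSPA1A and HSPA1B held the same unit, 106 and 105 bases before their starts, and their windows were 92.6% identical over aligned bases. HSPA8 had 1 pair 55 bases before its start and another 225 to 230 bases before it. HSPD1 (chr2:197486581-197516737) and HSPE1 (chr2:197499994-197503457) lie head to head, with starts 105 bases apart or, for the other annotated start of HSPD1, 539 bases apart. The stretch shown with the run of HSPD1 units ends 289 bases upstream of the HSPE1 start, outside the HSPE1 window. The EGR1 core, searched on both strands, was present in 9.43% of all windows, in at least 1 window of 11.2% of all genes and in at least 1 window of 3 chaperones: HSPA8, HSP90AA1 and DNAJB1. These 3 did not move alike in the comparisons that follow. A match is only a description of the letters, and binding was not measured.

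The 10 chaperones spanned a wide range of levels. Their summed share of all FPKM ran from 0.65% to 0.748% across the libraries. HSP90AB1, the constitutive cytosolic HSP90, and HSPA8, the constitutive HSP70, were among the 100 most abundant genes in every group, with ranks from 55 to 99 for HSP90AB1 and from 57 to 81 for HSPA8. HSPH1, the HSP110 exchange factor, was the lowest, with ranks from 2252 to 4094. HSPB1, the small heat shock protein HSP27, ranged most widely between groups: its highest group mean was 4.55 times its lowest, while that of HSPA8 was 1.09 times its lowest.

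EGR1 overexpression in PLC/PRF5 cells was compared with the vector to ask which transcripts differ when EGR1 is supplied. Of the 10, 3 rose and 1 fell. HSP90AA1, the stress-inducible cytosolic HSP90, rose most among those that passed the test, HSPH1 and HSPA1A rose less, and DNAJB1, the main J protein partner of inducible HSP70, fell. The other 6 did not pass. Of 11671 genes tested with limma on log2(FPKM + 1), 19.2% were called higher and 10.4% lower at an adjusted p under 0.05, so 3 and 1 of 10 are shares near those of all genes. The median difference of the 10 was 0.18, against 0.09 over all genes tested. The FPKM of the groups did not overlap for 5 of the 10, against 47.7% of all genes.

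HSP90AA1 was at 144.7, 218.9 and 186.9 FPKM with the vector and at 267.4, 274.9 and 268.0 FPKM with overexpression. Every overexpression library was above every vector library, and the vector libraries were spread far more widely (SD 37.2 against 4.18 FPKM, n = 3 each). The log2 difference was 0.58 ± 0.14 (SE, limma adjusted p = 0.0167). HSP90AB1, which works on the same clients, was at 883.2, 823.0 and 887.9 FPKM with the vector and at 745.1, 833.5 and 828.2 FPKM with overexpression, and these ranges overlapped. Its log2 difference of -0.11 ± 0.11 did not pass (adjusted p = 0.462). HSP90AA1 made up between 14.1% and 21.0% of the summed FPKM of the pair with the vector and between 24.4% and 26.4% with overexpression.

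DNAJB1 moved the other way. It was at 72.3, 66.2 and 68.4 FPKM with the vector and at 49.5, 54.8 and 53.1 FPKM with overexpression, so the groups were separate, with a gap wider than the range of either. The log2 difference was -0.39 ± 0.08 (adjusted p = 0.00957), and it passed in all 6 fits that left out 1 library. DNAJB1 (chr19:14514770-14529770) overlaps TECR and MIR639 on the other strand, and the sources used here do not say whether strand was used in quantification.

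HSPH1 was at 16.9, 21.9 and 19.7 FPKM with the vector and at 28.6, 25.2 and 25.3 FPKM with overexpression, and the groups did not overlap (log2 difference 0.42 ± 0.11, adjusted p = 0.0202). HSPA1A, an inducible HSP70, was at 53.8, 50.9 and 51.9 FPKM with the vector and at 57.4, 67.3 and 65.4 FPKM with overexpression (log2 difference 0.27 ± 0.09, adjusted p = 0.0462). Its neighbour HSPA1B, at 44.2, 41.3 and 42.8 against 46.7, 53.2 and 53.2 FPKM, had a log2 difference of 0.25 ± 0.09 that did not pass (adjusted p = 0.0582). The coding sequences of HSPA1A and HSPA1B are 99.8% identical, and 91.0% of the 100-base windows of HSPA1A also occur in HSPA1B, so how reads were divided between them is uncertain. The sum of both, 98.0, 92.1 and 94.7 FPKM with the vector and 104.1, 120.5 and 118.6 FPKM with overexpression, had a log2 difference of 0.26 ± 0.09, which did not pass (adjusted p = 0.0531). HSPA8 had a log2 difference of -0.12 ± 0.11, with ranges that overlapped (584.3 to 696.8 against 566.9 to 614.0 FPKM).

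The mitochondrial pair did not pass. HSPE1, the HSP10 lid of the mitochondrial chaperonin, was at 165.6, 230.4 and 175.5 FPKM with the vector and at 202.7, 316.9 and 309.2 FPKM with overexpression, where 2 libraries stood well above the vector range and 1 stood within it. Its log2 difference was 0.52 ± 0.19 (adjusted p = 0.0663). HSPD1, the HSP60 ring of the same chaperonin, was between 377.9 and 459.6 FPKM with the vector and between 435.7 and 464.4 FPKM with overexpression (log2 difference 0.11 ± 0.11, adjusted p = 0.435). HSPB1 was between 221.4 and 256.1 FPKM with the vector and between 250.4 and 260.2 FPKM with overexpression (log2 difference 0.12 ± 0.09, adjusted p = 0.357).

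The 3 rises depended on single libraries. Among these 6 fits HSPA1A passed only without overexpression library 1 (adjusted p = 0.0143), and its adjusted p lay between 0.0731 and 0.172 in the other 5 fits. HSPH1 passed without vector library 2 (adjusted p = 0.00934) or overexpression library 3 (adjusted p = 0.048) and lay between 0.0511 and 0.0604 in the others. HSP90AA1 was lost only without overexpression library 2 (adjusted p = 0.0553). Of the members that had not passed, HSPE1 did so without vector library 2 (adjusted p = 0.0369) or overexpression library 1 (adjusted p = 0.0109), HSPA1B without overexpression library 1 (adjusted p = 0.0206), and HSPB1 and HSPD1 passed in none.

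The libraries labelled knockout were compared with parental MHCC97H cells to ask which transcripts differ between them. The column headings call the parental cells Mock, without saying what was done to them. The sources used here name no guide vector and no cloning for these parental cells. The edit of EGR1, the lentiviral guide vector and growth from a single clone therefore cannot be told apart. Here 4 of the 10 rose and 3 fell. HSPB1 rose most, HSPA1A and HSPA1B reached 1.98 and 1.88 times their parental means, and DNAJB1 rose less, while HSP90AA1, HSPH1 and HSPD1 fell. HSPA8, HSP90AB1 and HSPE1 did not pass. Of 11577 genes tested, 34.8% were called higher and 31.5% lower, so the counts of 4 and 3 are again near the shares of all genes. The median difference was 0.03 over the 10 and 0.02 over all genes, and the groups did not overlap for 7 of the 10, against 71.8% of all genes.

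HSPB1 was at 433.7, 476.9 and 516.5 FPKM in the parental libraries and at 1023.1, 994.1 and 1218.5 FPKM in those labelled knockout. The lowest of the latter was well above the highest of the former, and the ratio of the means was 2.27. The log2 difference was 1.18 ± 0.11 (adjusted p = 5.80e-05). HSPA1A was at 48.6, 53.6 and 61.9 FPKM in the parental libraries and at 107.9, 103.6 and 113.5 FPKM in those labelled knockout (log2 difference 0.98 ± 0.10, adjusted p = 8.06e-05). HSPA1B followed it, with 44.1, 48.1 and 55.7 against 91.8, 90.3 and 95.3 FPKM (log2 difference 0.90 ± 0.10, adjusted p = 0.000101). In each of these the groups were far apart. The sum of HSPA1A and HSPA1B differed by 0.95 ± 0.10 (adjusted p = 8.98e-05). This sum does not depend on how shared reads were divided if each was counted once, which is not known here.

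The constitutive HSP70 did not pass the test. HSPA8 was between 590.4 and 636.1 FPKM in the parental libraries and between 620.3 and 664.5 FPKM in those labelled knockout (log2 difference 0.07 ± 0.09, adjusted p = 0.506). Set against HSPA8, the summed FPKM of HSPA1A and HSPA1B came to 15.2%, 16% and 19.9% in the parental libraries and to 31.2%, 31.3% and 31.4% in those labelled knockout. DNAJB1 was at 52.0, 56.8 and 58.2 against 65.1, 65.4 and 71.0 FPKM, and the groups did not overlap (log2 difference 0.27 ± 0.09, adjusted p = 0.0204). It was lost without parental library 1 (adjusted p = 0.0696), parental library 2 (adjusted p = 0.0618) or library 3 labelled knockout (adjusted p = 0.0677). DNAJB1 was also lost with a common FPKM total (0.12, adjusted p = 0.217) and after quantile normalization (0.01, adjusted p = 0.926).

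HSP90AA1 fell from 435.6, 399.2 and 346.8 FPKM to 222.9, 268.4 and 177.7 FPKM (log2 difference -0.83 ± 0.15, adjusted p = 0.0013). HSP90AB1 was at 536.0, 529.8 and 533.8 FPKM against 533.5, 494.7 and 566.6 FPKM, which is within the spread of the libraries (log2 difference -0.01 ± 0.09, adjusted p = 0.952). After quantile normalization HSP90AB1 was called lower (-0.22, adjusted p = 0.0202). The share of HSP90AA1 in the pair was lower too, with 44.8%, 43.0% and 39.4% in the parental libraries and 29.5%, 35.2% and 23.9% in those labelled knockout. HSPH1 fell from 33.2, 28.1 and 24.8 FPKM to 17.3, 18.7 and 12.7 FPKM, with no overlap (log2 difference -0.79 ± 0.15, adjusted p = 0.00172). HSPD1 fell from 375.6, 340.9 and 320.1 FPKM to 265.5, 271.9 and 249.5 FPKM (log2 difference -0.39 ± 0.09, adjusted p = 0.00475). HSPE1, at 122.7, 114.3 and 115.9 against 82.5, 130.8 and 94.6 FPKM, had groups that overlapped (log2 difference -0.22 ± 0.15, adjusted p = 0.216), and of the 6 fits that left out 1 library it passed in the one without library 2 labelled knockout (log2 difference -0.41, adjusted p = 0.00658). It also passed with a common FPKM total (-0.37, adjusted p = 0.0473) and after quantile normalization (-0.52, adjusted p = 0.0172).

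**Figure D1:**
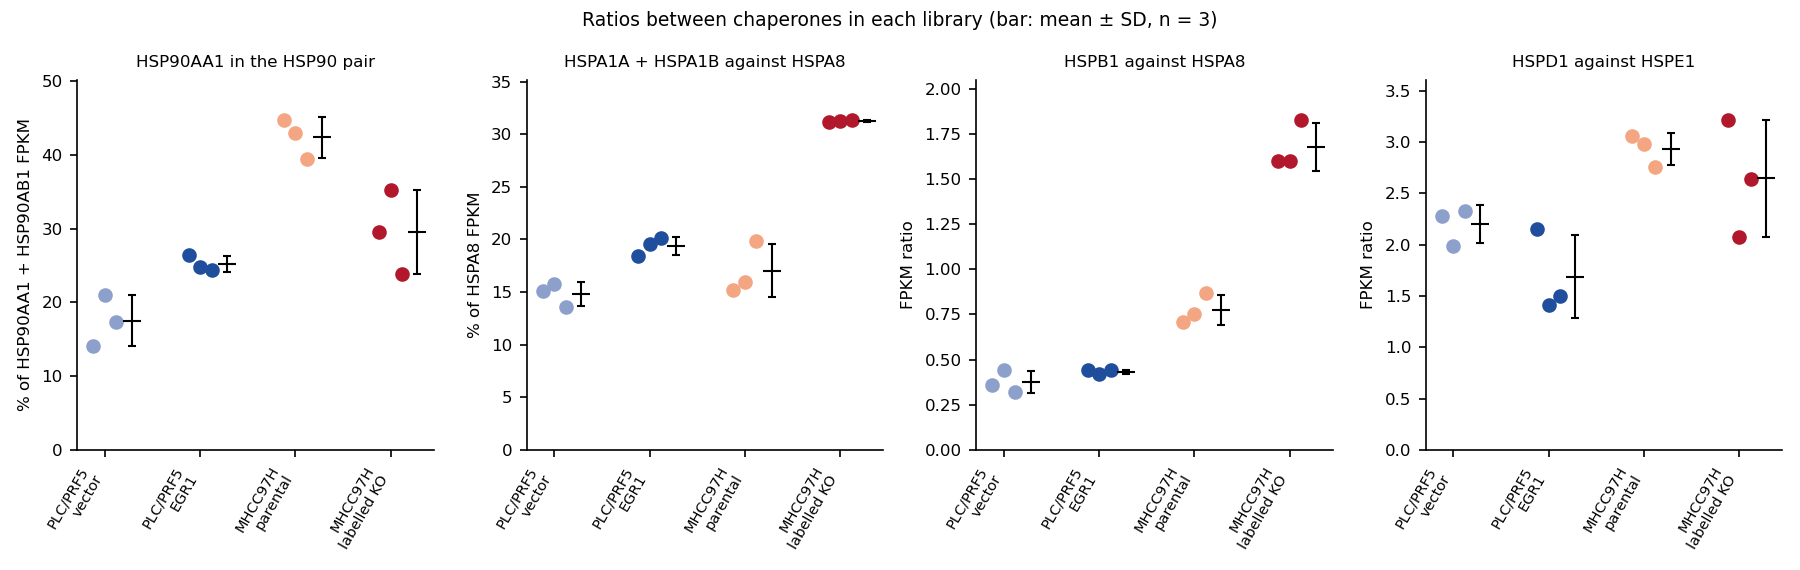
Ratios of FPKM within each library, on axes that start at 0: HSP90AA1 as a percentage of both cytosolic HSP90 genes, HSPA1A plus HSPA1B as a percentage of HSPA8, HSPB1 over HSPA8, and HSPD1 over HSPE1. Points are libraries and bars are the mean ± SD (n = 3); the libraries labelled knockout sit at 31.2% to 31.4% for HSPA1A plus HSPA1B, above all other libraries.

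GC content moved with these differences. Over the 10 members, the log2 difference between the libraries labelled knockout and the parental ones followed the GC content of the transcript, from HSPH1 (40.0% GC) and HSP90AA1 (43.0%), which fell, to HSPA1B (58.7%), HSPA1A (59.7%) and HSPB1 (64.5%), which rose most (Pearson's r = 0.97 and Spearman's rho = 0.94 across 10 genes of the same libraries, as a description). In the overexpression comparison r was -0.19. The same held over all genes: a trend on GC content and transcript length took up 54.6% of the variance of the log2 differences in MHCC97H cells and 18.2% in PLC/PRF5 cells. In MHCC97H cells the slope of log2 FPKM on GC content, relative to the mean of the 6 libraries, was -0.36, -0.26 and -0.15 per 10% GC in the parental libraries and 0.24, 0.17 and 0.36 in those labelled knockout. In PLC/PRF5 cells the slopes were 0.17, 0.02 and 0.06 with the vector and -0.12, -0.08 and -0.05 with overexpression. In both cell lines the slopes of the groups did not overlap, so a difference between the groups and a GC-dependent difference between their libraries cannot be told apart by design.

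The replicates of a group followed it in part. Parental library 3 and library 3 labelled knockout had the highest slope of their groups, and each had the highest HSPB1, HSPA1A, HSPA1B and DNAJB1 and the lowest HSPH1, HSP90AA1 and HSPD1 of its group. Vector library 1, with the highest slope among the vector libraries, had the lowest HSPH1 and HSP90AA1 and the highest DNAJB1, HSPA1A and HSPA1B of that group, while its HSPB1 lay between the other two. Overexpression library 1, with the lowest slope of its group, had the highest HSPH1 and the lowest DNAJB1, HSPA1A, HSPA1B and HSPB1, but also the lowest HSP90AA1 and HSPD1, 2 members of low GC content.

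**Figure D2:**
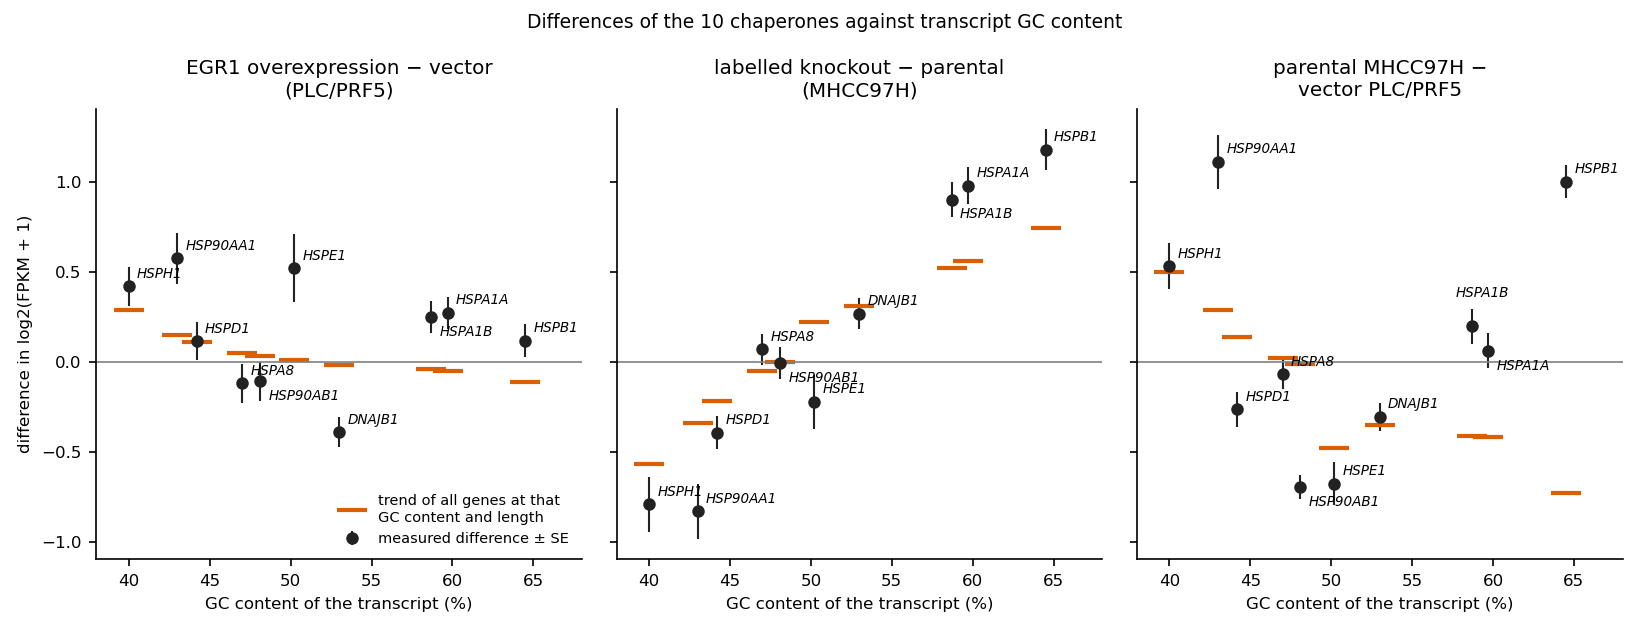
Log2 differences of the 10 chaperones (points, ± SE) against the GC content of their transcripts in percent, for the 3 comparisons. The dash at each gene is the value of the trend over all genes at its GC content and length; in the libraries labelled knockout the points climb with GC content (r = 0.97) beyond the dashes at both ends.

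When a smooth trend on GC content and length was fitted out of each library, 3 of the 4 rises and all 3 falls in the libraries labelled knockout kept their call, with smaller values. HSPB1 then differed by 0.44 (adjusted p = 0.000806), HSPA1A by 0.42 (adjusted p = 0.000646) and HSPA1B by 0.38 (adjusted p = 0.00104). HSP90AA1 differed by -0.49 (adjusted p = 0.00577), HSPH1 by -0.23 (adjusted p = 0.0293) and HSPD1 by -0.17 (adjusted p = 0.0208). DNAJB1 lost its call and its sign (log2 difference -0.04, adjusted p = 0.542), and HSPE1 gained one (log2 difference -0.44, adjusted p = 0.0353). With this correction 3 of the 10 were called higher and 4 lower, against 24.4% and 22.3% of the 10806 genes that could be corrected. Such a fit also takes out any change in the cells that follows GC content.

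In PLC/PRF5 cells the same correction left HSP90AA1 (log2 difference 0.42, adjusted p = 0.0106), HSPA1A (0.32, adjusted p = 0.00372) and DNAJB1 (-0.37, adjusted p = 0.00161) past the threshold. HSPH1, the member with the lowest GC content, was lost (0.13, adjusted p = 0.124). HSPA1B (0.29, adjusted p = 0.0048), HSPE1 (0.51, adjusted p = 0.0105) and HSPB1 (0.23, adjusted p = 0.0246) gained a call, which brought the count to 5 higher and 1 lower, against 16.7% and 18.1% of 10829 genes. Of all genes called, 64.8% were higher in the uncorrected fit, 48.1% with the correction and 46% after quantile normalization.

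**Figure D3:**
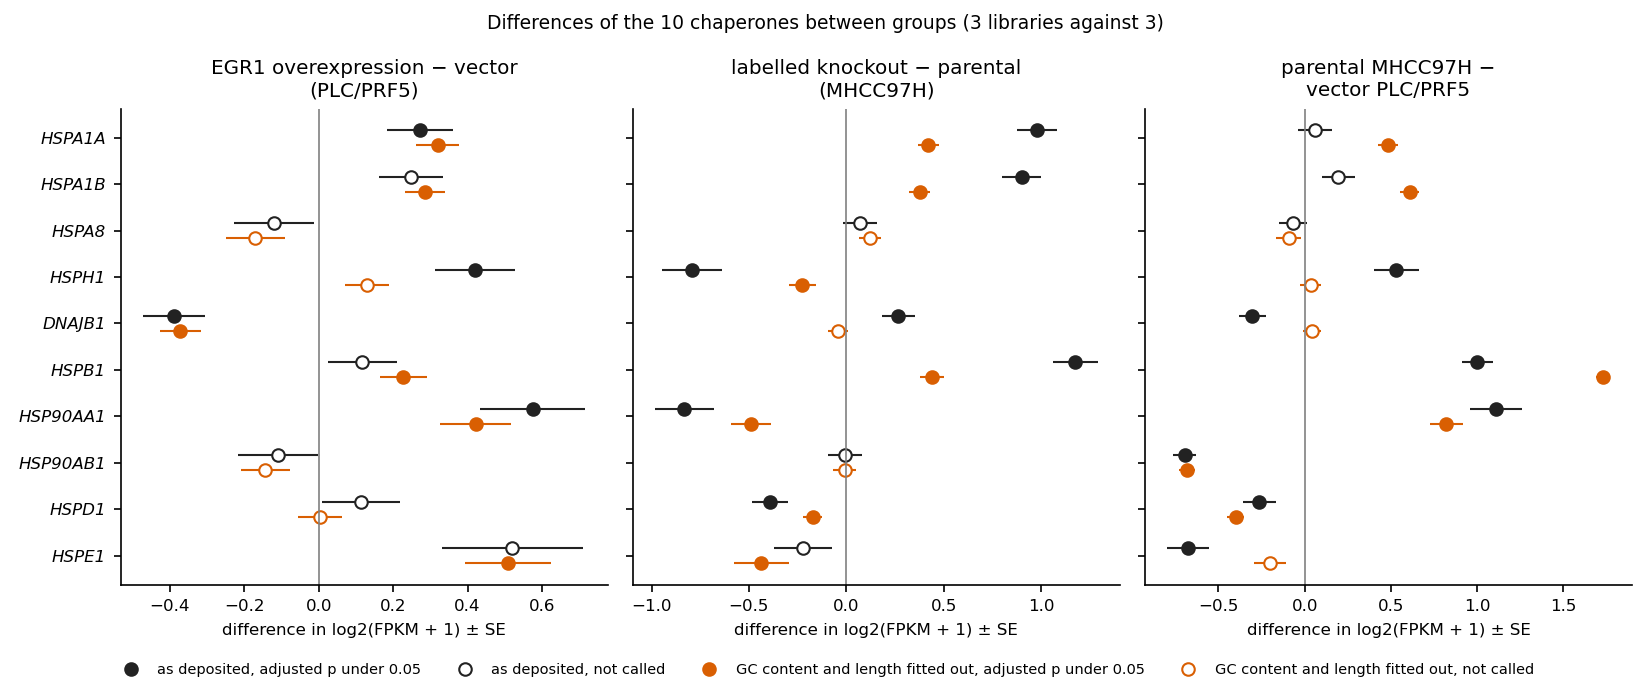
Differences in log2(FPKM + 1) of the 10 chaperones, ± SE, in the 3 comparisons, for FPKM as deposited (black) and with GC content and length fitted out (orange). Filled points passed an adjusted p of 0.05 in limma; DNAJB1 in MHCC97H cells moves from 0.27 to -0.04.

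The 2 cell lines were also set side by side. Parental MHCC97H cells were compared with vector-carrying PLC/PRF5 cells, so the line and the lentiviral vector cannot be told apart, and these groups also serve as controls above. Of 12046 genes tested, 38.8% were called higher in MHCC97H and 40.9% lower. Of the 10 chaperones 3 were called higher and 4 lower, and the groups did not overlap for 7, against 81.0% of all genes. HSP90AA1 (393.9 ± 44.6 against 183.5 ± 37.2 FPKM, mean ± SD, n = 3 each) differed by 1.11 ± 0.15 on the log2 scale (adjusted p = 0.000134), and HSPB1 (475.7 ± 41.4 against 237.1 ± 17.6 FPKM) by 1.00 ± 0.09 (adjusted p = 1.01e-05). The HSP90 pair thus differed in opposite directions, because HSP90AB1 was lower in MHCC97H (533.2 ± 3.15 against 864.7 ± 36.2 FPKM, log2 difference -0.70 ± 0.07, adjusted p = 1.61e-05).

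The other calls between the lines were smaller. HSPH1 was higher in MHCC97H (log2 difference 0.53 ± 0.13, adjusted p = 0.00462), and HSPE1 (-0.68 ± 0.12, adjusted p = 0.000798), DNAJB1 (-0.31 ± 0.08, adjusted p = 0.00623) and HSPD1 (-0.26 ± 0.10, adjusted p = 0.0311) were lower. HSPD1 passed only without vector library 1 (adjusted p = 0.0192) or parental library 1 (adjusted p = 0.0181) among the fits that left out 1 library, and lay between 0.0687 and 0.0932 without vector library 2 or 3 or parental library 2 or 3. HSPA1A, HSPA1B and HSPA8 did not pass, with log2 differences of 0.06 ± 0.10, 0.20 ± 0.10 and -0.07 ± 0.08. After quantile normalization HSPA8 was called higher in MHCC97H (log2 difference 0.35, adjusted p = 0.00711). HSPA1B passed without parental library 1 (log2 difference 0.27, adjusted p = 0.0307). The slopes on GC content ran from 0.13 to 0.28 in the vector libraries and from -0.30 to -0.09 in the parental ones. With GC content and length fitted out, HSPA1A (0.48, adjusted p = 4.51e-05) and HSPA1B (0.61, adjusted p = 9.32e-06) were called higher in MHCC97H, HSPB1 differed by 1.73, and HSPH1 (0.03), DNAJB1 (0.04) and HSPE1 (-0.20) lost their calls, which left 4 of the 10 higher and 2 lower, against 39.4% and 42.1% of 11214 genes.

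The order of the 4 groups differed from member to member. HSPA1A and HSPA1B were highest in the libraries labelled knockout, and the other 3 groups overlapped with their neighbours in that order. HSPB1 fell in the order labelled knockout, parental, overexpression and vector, with only the last 2 overlapping. HSP90AB1 was higher in both PLC/PRF5 groups than in both MHCC97H groups, and within each line the groups overlapped. HSPE1 had the same order of groups as HSPD1, with overexpression first, then vector, parental and labelled knockout; within each line the groups overlapped except for HSPD1 in MHCC97H cells. The ratio of HSPD1 to HSPE1 was between 1.41 and 2.33 in PLC/PRF5 libraries and between 2.08 and 3.22 in MHCC97H libraries. HSPE1 shares its strand with the readthrough gene HSPE1-MOB4, which was listed at 0 in all 12 libraries. HSPD1 and HSPE1 have 17 and 26 annotated pseudogenes, HSPA8 has 17, HSP90AB1 5, HSP90AA1 4, HSPB1 2 and DNAJB1 1. None has a row in the table, and how reads shared with them were assigned is not known here. HSP90AA1 also overlaps WDR20 on the other strand, and HSPA1B overlaps AL671762.1 on its own strand.

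The factors that drive the family were read next. HSF1, the main heat shock transcription factor, was at 75.6, 67.0 and 68.4 FPKM with the vector and at 71.2, 63.0 and 68.9 FPKM with overexpression, and did not pass (log2 difference -0.05 ± 0.09, adjusted p = 0.668). In MHCC97H cells it was at 53.5, 52.7 and 59.8 FPKM in the parental libraries and at 80.2, 71.8 and 84.1 FPKM in those labelled knockout, with no overlap (log2 difference 0.50 ± 0.09, adjusted p = 0.00158). HSF2, which forms mixed trimers with HSF1, moved the other way there, from 10.7, 10.1 and 9.01 FPKM to 4.84, 4.31 and 4.87 FPKM (log2 difference -0.94 ± 0.11, adjusted p = 0.000107). HSF4 was low throughout, with group means from 1.39 to 5.59 FPKM, and rose in the libraries labelled knockout (log2 difference 0.66 ± 0.15, adjusted p = 0.00393). HSBP1, a small protein that binds HSF1 trimers, did not pass in either (0.17 ± 0.12, adjusted p = 0.312, and -0.23 ± 0.10, adjusted p = 0.0641). HSF1 activity rests largely on its trimerization and phosphorylation, which mRNA does not show. With GC content and length fitted out, the call of HSF1 in the libraries labelled knockout turned to lower (-0.19, adjusted p = 0.0237), HSF2 stayed lower (-0.51, adjusted p = 0.00434) and HSF4 lost its call (-0.10, adjusted p = 0.628).

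Other genes known to rise with HSF1 under stress were taken as a list of 22, of which 19 were tested in each comparison. With EGR1 overexpression 4 rose and 1 fell (median 0.11), against 19.2% of all genes called higher and 10.4% lower. CHORDC1, an HSP90 cochaperone (log2 difference 0.78, adjusted p = 0.0152), DNAJB4, a J protein (0.75, adjusted p = 0.0163), and HSPB8, a small heat shock protein (0.50, adjusted p = 0.00917), rose most, and SERPINH1, the collagen chaperone of the endoplasmic reticulum, fell (-0.61, adjusted p = 0.00226). In the libraries labelled knockout 11 rose and 5 fell (median 0.38), against 34.8% of all genes called higher and 31.5% lower. CRYAB, the alpha B-crystallin chaperone, rose from a mean of 1.67 to 7.70 FPKM (log2 difference 1.69, adjusted p = 4.57e-05), AHSA1, which activates the HSP90 ATPase, by 1.00 (adjusted p = 0.000106) and HSPB8 by 0.86 (adjusted p = 0.000115). DNAJB4 (-0.75, adjusted p = 0.00516), CHORDC1 (-0.62, adjusted p = 0.0273) and HSPA4L, an HSP110 relative (-0.50, adjusted p = 0.00908), fell. With GC content and length fitted out, 9 of the 19 rose and 1 fell (BAG3, -0.34, adjusted p = 0.00179) in the libraries labelled knockout. Under the same correction 3 rose and 1 fell with overexpression. The corrected shares of all genes were 24.4% higher and 22.3% lower in the former and 16.7% and 18.1% in the latter. CRYAB then differed by 1.28 (adjusted p = 8.69e-05), while CHORDC1 (-0.04) and DNAJB4 (0.10) did not pass and HSPA4L turned to higher (0.25, adjusted p = 0.0426). With overexpression DNAJB4 lost its call (0.20, adjusted p = 0.127).

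Partners of the HSP70 and HSP90 members were counted in the same way. The shares of all genes were 19.2% higher and 10.4% lower with overexpression, and 34.8% and 31.5% in the libraries labelled knockout. Of 13 cochaperones of cytosolic HSP90, 2 rose and none fell with overexpression, among them SUGT1 (0.51, adjusted p = 0.0339). In the libraries labelled knockout 7 rose and 4 fell. CDC37, which brings kinases to HSP90, rose by 1.22 (adjusted p = 3.73e-05) and NUDC by 1.04 (adjusted p = 8.06e-05), while FKBP5, an immunophilin, fell (-0.49, adjusted p = 0.0015). Of 9 exchange factors and links from HSP70 to degradation, 1 rose with overexpression (BAG5, 0.30, adjusted p = 0.0461), and in the libraries labelled knockout 4 rose and 4 fell. STUB1, the ubiquitin ligase CHIP that acts on HSP70 and HSP90 clients, rose by 1.46 (adjusted p = 2.39e-05) and BAG1 by 1.06 (adjusted p = 0.000132), and BAG4 fell (-0.91, adjusted p = 0.000197). With GC content and length fitted out, 6 of the 13 cochaperones were higher and 0 lower in the libraries labelled knockout. Of the 9 exchange factors and links, 3 were higher and 2 lower there. The corrected shares of all genes were 24.4% higher and 22.3% lower. STUB1 (0.69), CDC37 (0.57), NUDC (0.55), BAG1 (0.50) and BAG4 (-0.37) stayed past the threshold in these libraries. FKBP5 did not (-0.16, adjusted p = 0.0861). For overexpression the corrected counts were 2 higher and 1 lower, and 1 higher and 0 lower. The corrected shares of all genes there were 16.7% and 18.1%. With overexpression SUGT1 (-0.02, adjusted p = 0.93) and BAG5 (0.10, adjusted p = 0.314) lost their calls.

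For the next lists the shares of all genes were the same. They were 19.2% higher and 10.4% lower with overexpression, and 34.8% and 31.5% in the libraries labelled knockout. Among other J proteins, 5 of 14 rose and 1 fell with overexpression, led by DNAJC2, a ribosome-bound J protein (1.25, adjusted p = 0.000453), and DNAJB14 (0.81, adjusted p = 0.0234), with DNAJB5 lower (-0.43, adjusted p = 0.0121). In the libraries labelled knockout 3 of 13 rose and 6 fell, with DNAJB2 (1.06, adjusted p = 0.000268) and DNAJC5 (1.02, adjusted p = 4.84e-05) higher and DNAJC2 (-1.22, adjusted p = 0.00132) and DNAJB14 (-1.14, adjusted p = 0.00245) lower. Other relatives of HSP70 and HSP110 split 2 higher and 2 lower of 9 with overexpression and 1 higher and 5 lower of 8 in the libraries labelled knockout. After the GC and length correction the balance of both lists turned in the libraries labelled knockout, to 7 higher and 3 lower J proteins and to 3 higher and 1 lower of the relatives. Of all genes, 24.4% were called higher and 22.3% lower in these libraries after the correction. DNAJB14 lost its call there (-0.22, adjusted p = 0.107) and with overexpression (0.23, adjusted p = 0.16), where the counts became 3 higher and 2 lower, and 0 higher and 2 lower. The corrected shares of all genes with overexpression were 16.7% higher and 18.1% lower. Of 3 other tested genes listed as small heat shock proteins, 1 rose with overexpression. In the libraries labelled knockout 2 rose and 1 fell, HSPB11 (-0.58, adjusted p = 0.00884), which is listed by its symbol. The cytosolic chaperonin TRiC and prefoldin had 1 of 14 higher with overexpression (PFDN2, 0.52, adjusted p = 0.0489) and 4 higher and 5 lower in the libraries labelled knockout. Mitochondrial chaperones and proteases had 3 of 10 higher and 1 lower with overexpression, where TRAP1, the mitochondrial HSP90, fell (-0.41, adjusted p = 0.00687). In the libraries labelled knockout 4 rose and 3 fell, among them CLPP (1.03, adjusted p = 7.62e-05), LONP1 (0.86, adjusted p = 0.000117) and HSPA9, the mitochondrial HSP70 (-0.40, adjusted p = 0.00238). After the GC and length correction CLPP differed by 0.28 and LONP1 by 0.26, both still past the threshold, and HSPA9 lost its call (-0.05, adjusted p = 0.58).

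The chaperones of the endoplasmic reticulum, the same families in another compartment, were counted last. With EGR1 overexpression none of 10 rose and 4 fell, against 19.2% of all genes called higher and 10.4% lower. HSPA5, the HSP70 of the endoplasmic reticulum, was at 202.1, 193.9 and 196.4 FPKM with the vector and at 124.8, 130.8 and 133.6 FPKM with overexpression (log2 difference -0.60, adjusted p = 0.00155). PDIA4, a disulfide isomerase, fell by 0.70 on the log2 scale (adjusted p = 0.00058), SDF2L1 by 0.56 (adjusted p = 0.0103) and HYOU1, the HSP110 relative of that compartment, by 0.47 (adjusted p = 0.0089). In the libraries labelled knockout 5 rose and 3 fell, against 34.8% of all genes called higher and 31.5% lower. SDF2L1 (1.26, adjusted p = 7.51e-05), HYOU1 (0.71, adjusted p = 0.000428) and PDIA4 (0.65, adjusted p = 0.000288) rose, and DNAJB9 (-0.43, adjusted p = 0.0315), DNAJC3 (-0.39, adjusted p = 0.017) and CANX (-0.23, adjusted p = 0.0359) fell. With GC content and length fitted out, the counts were 7 lower of 10 with overexpression and 8 higher of 10 in the libraries labelled knockout, with none in the other direction, against 18.1% of all genes lower and 24.4% higher. CANX turned to higher in the libraries labelled knockout (0.22, adjusted p = 0.0335), and DNAJB9 (0.03) and DNAJC3 (0.19) lost their calls.

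The same lists between the lines had 8 of 19 HSF1-inducible genes higher in MHCC97H and 4 lower, with HSPB8 first (log2 difference 2.37, adjusted p = 8.36e-08) and SERPINH1 next (1.19, adjusted p = 4.44e-06). Of all genes, 38.8% were called higher in MHCC97H and 40.9% lower. HSF1 was lower in MHCC97H (-0.34 ± 0.09, adjusted p = 0.00536), a call that was lost with a change of sign once GC content and length were fitted out (0.12, adjusted p = 0.0921), and HSF2 (0.84 ± 0.14, adjusted p = 0.000527) and HSF4 (0.81 ± 0.17, adjusted p = 0.00207) were higher. Of 13 HSP90 cochaperones, 9 were lower and 3 higher, with NUDC lowest (-1.77, adjusted p = 2.75e-07) and PTGES3, the p23 cochaperone, highest (1.43, adjusted p = 6.89e-07). Chaperones of the endoplasmic reticulum were lower for 8 of 10 and higher for none, led by SDF2L1 (-2.19, adjusted p = 6.45e-07) and HYOU1 (-1.90, adjusted p = 3.49e-07). The hepatocyte markers, which check the lines, were lower in MHCC97H for 8 of 9 tested.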

How the data were processed

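Poly(A) RNA of 12 libraries was selected with oligo(dT) beads, treated with duplex-specific nuclease and sequenced on an Illumina NovaSeq. The authors deposited FPKM per gene for each library, and the submitters' processing notes name StringTie and hg38; the aligner and annotation are not given in the sources used here. All 12 columns were used (0 left out) as deposited. Read depth is unknown, so no interval for counting error or floor could be given. GENCODE 29 (GRCh38) gave coordinates, lengths and GC content for 19458 of 22963 names, of which 3031 were assembled loci.

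Groups came from the sample labels. Each of the 3 comparisons was fitted on its 6 libraries with limma 3.58.1 in R 4.3.3, with an intensity trend and no covariates, after log2 transformation with a pseudocount of 1, keeping genes whose mean reached 1 FPKM. The tests were 2-sided, with Benjamini-Hochberg adjustment over all genes tested and a threshold of 0.05. Fold changes on this scale understate those of low genes. Exact permutation tests of 3 against 3 libraries cannot go below 0.1. On simulated data with 200 genes changed by 1 on the log2 scale, 90.5% were recovered in the overexpression design, 88% in the knockout design and 89% between the lines. The noise was drawn for each gene on its own. Smaller differences and a GC trend shared within a library were not simulated, so these shares do not bear on them.

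The members and lists were chosen with earlier results of these data known. All 10 members, HSF1, HSF2, HSF4 and HSBP1 were named, and of each other list at most 3 called higher and 3 called lower with the largest change per comparison. To correct for GC content and length, a spline with 5 degrees of freedom on each property was fitted out of each library, for the 10829, 10806 and 11214 genes with both values. The remaining alternatives were 0.1 as the pseudocount, keeping every gene with any FPKM above 0, a common FPKM total, quantile normalization, no trend, a joint fit of all 12 libraries, replicate number as a blocking factor, the sum of HSPA1A and HSPA1B, and leaving out each library.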

Additional observations from a re-analysis of the deposited data

How the results depend on the processing

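Of 436 alternative values of the members' differences, 369 kept their direction and side of the threshold, 32 lost the threshold, 25 gained it and 10 changed sign. The count of members called higher with EGR1 overexpression (3) was 1 with a filter of FPKM above 0, 5 after quantile normalization and 5 with GC content and length fitted out, and ran from 0 to 4 when 1 library was left out. It was 1 without vector library 1 or 3 and 0 without overexpression library 2. In the libraries labelled knockout the count called lower (3) was 5 after quantile normalization. Between the lines the count called higher (3) was 6 after quantile normalization, and the count called lower (4) was 2 with a common FPKM total, quantile normalization or the GC and length correction. Signs changed for HSPA8 in the libraries labelled knockout (-0.08 with a common total, -0.15 after quantile normalization) and DNAJB1 there (-0.04 with the correction). The sign of HSP90AB1 changed there too (0.04 without library 2 labelled knockout, in a range of -0.05 to 0.04 over left-out libraries). Between the lines signs changed for HSPA8 (0.04 with a common total and 0.35, past the threshold, after quantile normalization), DNAJB1 (0.04) and HSPD1 (0.03 after quantile normalization). HSPA1A changed sign there as well (-0.03 without parental library 3, in a range of -0.03 to 0.14). The cause was not tested. A common total moved the median of all genes from 0.02 to -0.11 in MHCC97H cells and the share called higher from 52.5% to 41.5%.

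Same-numbered libraries correlated at -0.13, 0.14 and -0.08 in PLC/PRF5 cells and at 0.03, 0.03 and 0.47 in MHCC97H cells, so the numbers were not taken as pairs. With the replicate block the members called stayed at 3 higher and 1 lower in number for overexpression, where HSPA1A lost its call (adjusted p = 0.0807) and HSPE1 gained one (adjusted p = 0.0168), and at 4 and 3 in the libraries labelled knockout; with the block and the GC and length correction they were 5 and 1, and 3 and 4. The block gave 2167 higher and 1086 lower calls over all genes with overexpression and 4133 and 3854 in MHCC97H cells. No other member changed its call. Among all genes, 2240 higher and 1217 lower calls with overexpression became 1192 and 727 without overexpression library 2, 1351 higher without overexpression library 3, 1476 higher without vector library 1, 1451 and 795 without vector library 3, and 1959 lower with the correction. In MHCC97H cells, 4029 and 3642 became 2633 and 2409 with the correction.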
